A study of Mus musculus with 8 samples.

Results

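The core histone genes were described in pharyngeal arch and heart tissue of Pygo2 mutant mouse embryos and their wild-type littermates. They were taken by symbol, as every gene of the deposited count table whose name begins with Hist1, Hist2, Hist3 or Hist4 followed by h2a, h2b, h3 or h4, so that the linker histone genes Hist1h1 stayed out. This gave 62 of the 23420 genes in the table: 18 for H2A, 19 for H2B, 12 for H3 and 13 for H4. By cluster, 48 lie in Hist1, 10 in Hist2, 3 in Hist3 and 1 in Hist4. Of the 62, 53 passed the filter on low counts and were tested among 14861 genes.

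Each of the 8 libraries was made from 1 embryo at 10.5 dpc, of which the branchial arches with the looping heart were taken, 4 labelled Pygo2 mutant (mutants 1 to 4) and 4 labelled Pygo2 wild-type (wild-type 1 to 4). The genotype is all that the labels give to set the groups apart: the altered part of Pygo2, the strain and the sex of the embryos are not stated in them. Pygo2 encodes a PHD-finger protein of the Wnt and β-catenin transcription complex. Total RNA was depleted of ribosomal RNA before sequencing, so RNA without a poly(A) tail was kept. Library totals ran from 20823890 to 28175968 counts, and levels are given as CPM, the counts of a gene set to a common library size after TMM scaling. Pygo2 had 22.0, 19.6, 18.5 and 17.3 CPM in mutants 1 to 4, against 56.2, 54.1, 49.1 and 44.6 CPM in wild-type 1 to 4, a log2 fold change (mutant over wild-type) of -1.40 (SE 0.12). It was the only gene of 14861 with an adjusted p under 0.05 (edgeR quasi-likelihood test with Benjamini-Hochberg adjustment, adjusted p = 0.00805), with n = 4 embryos a group. The adjusted p lay between 0.0549 and 0.0973 when wild-type 1, wild-type 2, mutant 2, mutant 3 or mutant 4 was left out, with a log2 fold change of -1.40 to -1.35. The series' design text calls the wild-type embryos littermates, but not which embryos shared a litter.

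Replication-dependent histone genes supply the H2A, H2B, H3 and H4 proteins that package newly copied DNA, and they are transcribed mainly in S phase. H3 and H4 form the centre of the nucleosome, and H2A and H2B flank it. They have no introns in their main transcripts, and their mRNAs end in a conserved stem-loop instead of a poly(A) tail. The stem-loop is bound by the protein Slbp, is cut with the help of the U7 small nuclear RNA, and ties the life of the mRNA to DNA synthesis. In mouse the genes stand in clusters, often as pairs of an H2A and an H2B gene that are read in opposite directions from a shared promoter.

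The stem-loop is the element that these genes share beyond their proteins, and its letters set H4 apart from the other types. The histone 3′ stem-loop motif (16 bases, with arms of fixed and free bases around a loop; sense strand of the GENCODE M21 transcripts) was found in 40 of the 62 core histone genes, against 82 of all 55341 annotated genes (0.148%), of which another 4 were linker histone genes. Of 18 H2A genes 11 held it, of 19 H2B genes 10, of 12 H3 genes 9 and of 13 H4 genes 10. For the other genes no match says only that its letters are not in the annotated transcript, and 11 models of all 62 hold coding sequence alone. The 40 matches had 7 forms, given here 5′ to 3′ as DNA letters for 1 gene each, with the 2 arms of the stem in capitals and the loop in lower case.
Hist1h2ab: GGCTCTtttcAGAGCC
Hist1h4c: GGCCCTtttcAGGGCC
Hist1h2bb: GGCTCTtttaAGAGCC
Hist1h4i: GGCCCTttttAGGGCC
Hist1h4a: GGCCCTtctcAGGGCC
Hist1h3g: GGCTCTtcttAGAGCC
Hist2h2ac: GGCTCTttttAGAGCC
The form of Hist1h2ab stood in 23 genes, 10 for H2A, 8 for H2B and 5 for H3, and that of Hist1h4c in 7 genes, which were all for H4. The form of Hist1h2bb was shared by 5 genes (2 for H2B, 3 for H3) and that of Hist1h4i by 2, while Hist1h4a, Hist1h3g and Hist2h2ac each had a form of their own. In each form the left arm was the reverse complement of the right arm. All 10 H4 matches had the arm GGCCCT and the 30 others GGCTCT.

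Core histone RNA made up 0.788% to 1.13% of all counts in mutants and 0.972% to 1.32% in wild-type embryos. H2B genes held the largest share of the core histone counts, with 36.5% ± 2.55 in mutants and 35.2% ± 2.58 in wild-type embryos (SD, n = 4 each). H4 genes held 30.8% ± 2.95 in mutants and 32.1% ± 2.48 in wild-type embryos, H3 genes 21.7% ± 1.31 in mutants and 22.2% ± 0.767 in wild-type embryos, and H2A genes 11.1% ± 1.03 in mutants and 10.5% ± 0.553 in wild-type embryos. The order of the 4 types was the same in the group means of mutants and wild-type embryos, but H2B and H4 were not separated beyond their spread, and H4 was above H2B in mutant 1 (35.1% against 33.5%) and in wild-type 1 (34.5% against 34.4%). The single gene Hist2h2bb gave 1035 of the mean H2B sum of 3251 CPM in mutants and 1252 of 3907 CPM in wild-type embryos. The types also differ in how much of their sequence is unique, as given below. These are therefore shares of counts as assigned, and the part of shared sequence in their order was not tested. The Hist1 cluster held 78.2% ± 0.476 in mutants and 78.6% ± 1.44 in wild-type embryos, and the Hist2 cluster 15.1% ± 1.12 in mutants and 15.1% ± 1.90 in wild-type embryos. For every type and for Hist1 and Hist2 the group means of these shares differed by less than 1 SD of the wild-type libraries or of the mutant libraries, whichever was larger.

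Per kilobase of gene model the levels ran over a wide range within each type. Hist2h2bb, an H2B gene of the Hist2 cluster, had the highest mean, with 2715 in mutants and 3287 in wild-type embryos (CPM per kb), followed within H2B by Hist1h2bb with 892 in mutants and 1222 in wild-type embryos. Among H4 genes Hist1h4f had 722 in mutants and 1075 in wild-type embryos, Hist1h4k 766 in mutants and 956 in wild-type embryos and Hist1h4h 742 in mutants and 913 in wild-type embryos. Among H3 genes Hist1h3b had 421 in mutants and 586 in wild-type embryos and Hist1h3f 435 in mutants and 552 in wild-type embryos. Among H2A genes Hist1h2ak had 497 in mutants and 543 in wild-type embryos, Hist1h2ab 271 in mutants and 322 in wild-type embryos and Hist2h2ac 234 in mutants and 325 in wild-type embryos. The lowest of the tested genes were Hist1h4n, Hist2h3c1, Hist2h2be and Hist2h3c2, with 1.47 in mutants and 1.59 in wild-type embryos for Hist1h4n and 3.62 in mutants and 3.17 in wild-type embryos for Hist2h3c2. A level per length depends on the model, since some models stop at the coding end and others run far past the stem-loop.

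Near-identical sequence limits what a count for a single histone gene means. Of all 50-base stretches in the longest transcript of a gene, a median of 27.0% were unique to it among H2A genes, 54.7% among H2B, 38.0% among H3 and 60.5% among H4. Matches on either strand were counted, so an annotated entry on the opposite strand also takes uniqueness away, although the libraries were stranded. Hist1h2ao and Hist1h2ap, which share 93.5% and 93.1% of their stretches with each other, were listed at 0 counts in all 8 libraries, as were Hist1h2bq and Hist1h2br, which share 97.3% and 88.4%. Hist2h2bb, Hist2h3b, Hist2h3c1, Hist2h2aa1 and Hist2h2aa2 had no unique stretch, because other entries of the annotation cover the same bases. Of these, Hist2h2aa1 was also listed at 0 counts in all 8 libraries. Hist2h2aa2 had 2 counts in mutant 2, 2 in wild-type 1 and 0 elsewhere, and Hist1h4m had 1 count, in mutant 1. The shares of H2A and of the Hist2 cluster thus hold next to no counts of Hist2h2aa1 and Hist2h2aa2. The best separated genes were Hist2h2be with 100%, Hist2h4 with 99.0%, Hist4h4 with 91.9% and Hist1h4d with 89.8% unique stretches. Counts of the shared genes are uncertain, because neither the treatment of reads with several matches nor the strand setting used for counting is stated in the labels.

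**Figure D1:**
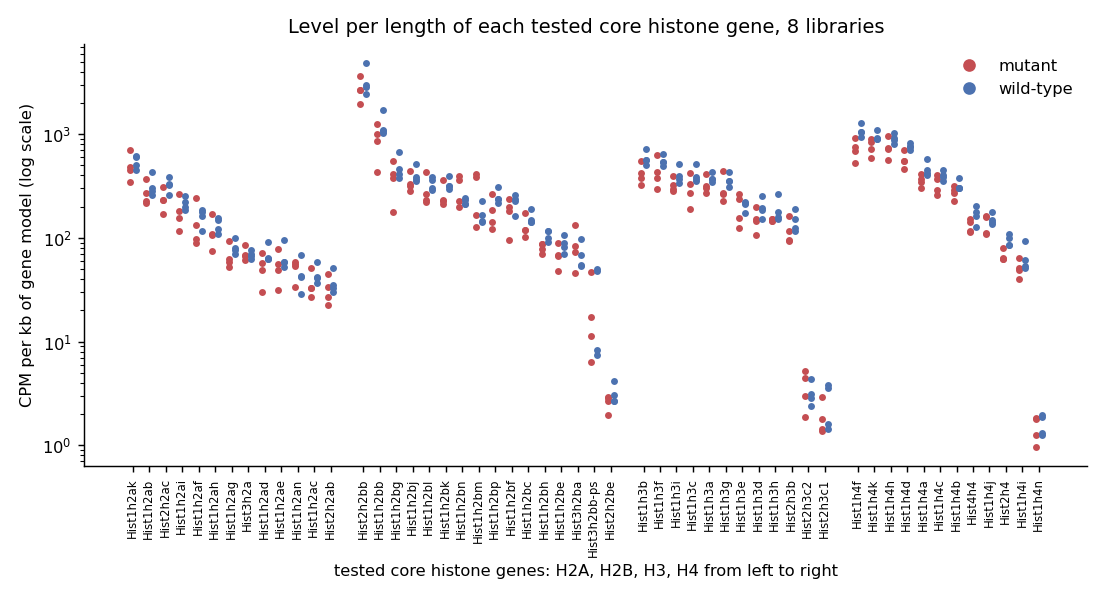
Level of each of the 53 tested core histone genes in CPM per kb of gene model (log scale), by type and in falling order within a type; each point is a library, mutants left of wild-type. Hist2h2bb stands above all other genes, and the spread between genes of a type is wider than the spread between the libraries for most genes.

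Mutants 1 and 4 stood apart within the Hist1 cluster, and values are therefore also given without them. For 40 Hist1 genes with a mean above 1 CPM in wild-type embryos, the log2 ratio of each library to the wild-type mean was taken along chromosome 13, where the genes form 2 arrays: 22 genes between 21715763 and 22043676 and 26 genes between 23531050 and 23934851 (mm10). The standard deviation of this ratio over the 40 genes was 0.57 in mutant 1 and 0.40 in mutant 4, against 0.11 in mutant 2 and 0.20 in mutant 3, and it lay between 0.08 and 0.14 in the 4 wild-type libraries, each of which is part of the mean it was set against. In mutant 1 the ratios ran from -1.51 to 1.18, with a median of -0.29 in the first array and -0.79 in the second. In mutant 4 they ran from -1.03 to 1.28, with medians of -0.52 in the first array and -0.53 in the second, and the standard deviation was 0.61 in the first array and 0.15 in the second. Mutant 2 was lower nearly evenly, with a median of -0.40 and a range of -0.68 to -0.16, and mutant 3 had a median of 0.07.

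The genes that stood highest in mutants 1 and 4 encode H2B. Hist1h2bm (chr13:21722044-21722567, plus strand) had 203, 66.1, 87.2 and 217 CPM in mutants 1 to 4, against 74.7, 77.1, 119 and 86.5 CPM in wild-type 1 to 4. Mutants 1 and 4 were above all other libraries and mutants 2 and 3 lay among or below the wild-type ones. Hist1h2bn (chr13:21754123-21754503, plus strand) had 150.0, 74.9, 87.2 and 137 CPM in mutants 1 to 4, against 81.7, 81.2, 93.1 and 89.0 CPM in wild-type 1 to 4, again with mutants 1 and 4 highest. Both share sequence with other H2B genes (56.2% of stretches unique in Hist1h2bm, 13.6% in Hist1h2bn). The H2A gene Hist1h2an had 23.1, 13.2, 20.9 and 22.2 CPM in mutants 1 to 4, against 11.4, 16.5, 26.8 and 16.7 CPM in wild-type 1 to 4, with the 2 groups overlapping. Their differences did not pass the test. Hist1h2bm had a log2 fold change of 0.68 (SE 0.37, edgeR quasi-likelihood unadjusted p = 0.0963, adjusted p = 1), Hist1h2bn one of 0.38 (SE 0.21, unadjusted p = 0.104), and Hist1h2an 0.15 (SE 0.27), in the same edgeR fit. Without mutants 1 and 4 it was -0.21 for Hist1h2bm, -0.08 for Hist1h2bn and -0.05 for Hist1h2an, so the direction of all 3 turned with these libraries.

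Mutant 1 differed further. Hist1h2ba (chr13:23933773-23934156, minus strand), which encodes the testis-specific H2B and failed the filter on low counts, had 1457, 10, 1 and 2 counts in mutants 1 to 4, against 4, 1, 3 and 1 counts in wild-type 1 to 4. In mutant 1 this came to 60.9 CPM. Of its stretches 61.8% are unique and 38.2% are shared with Hist1h2bj. Which of them the reads of mutant 1 cover cannot be seen from counts. Its neighbour Hist1h2aa, the testis-specific H2A gene that starts 305 bases away on the other strand, had 3, 5, 0 and 0 counts in mutants 1 to 4, against 3, 0, 1 and 0 counts in wild-type 1 to 4. Hist1h2bb, the second highest H2B gene per length, was in turn lowest in mutant 1, with 218, 510.4, 643 and 440.4 CPM in mutants 1 to 4, against 520.3, 548, 862 and 554 CPM in wild-type 1 to 4. Hist1h2bg also had its lowest value in mutant 1, with 111, 236, 339 and 253 CPM in mutants 1 to 4, against 232, 257, 418 and 283 CPM in wild-type 1 to 4. Hist1h2bl was highest there, with 166, 87.5, 101 and 83.7 CPM in mutants 1 to 4, against 111, 146, 138 and 115 CPM in wild-type 1 to 4. Among the mutants, H2B genes of the same chromosome thus stood both far above and far below the wild-type range in a single embryo. Other genes of at least 10 CPM in or within 200 kb of the arrays were also set against the wild-type mean. The 5 linker histone genes had log2 ratios from -0.99 to -0.14 in mutant 1 and from -0.62 to -0.36 in mutant 2. They ran from -0.27 to 0.03 in mutant 3, from -0.86 to -0.13 in mutant 4 and from -0.40 to 0.52 in wild-type libraries. Lower linker histone levels were thus not particular to mutants 1 and 4. The 4 others (Zkscan8, Zfp184, Zfp322a and Abt1) ran from -0.45 to -0.12 in mutant 1 and from -0.21 to 0.08 in mutant 2. They ran from 0.01 to 0.28 in mutant 3, from -0.16 to 0.24 in mutant 4 and from -0.36 to 0.42 in wild-type libraries.

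**Figure D2:**
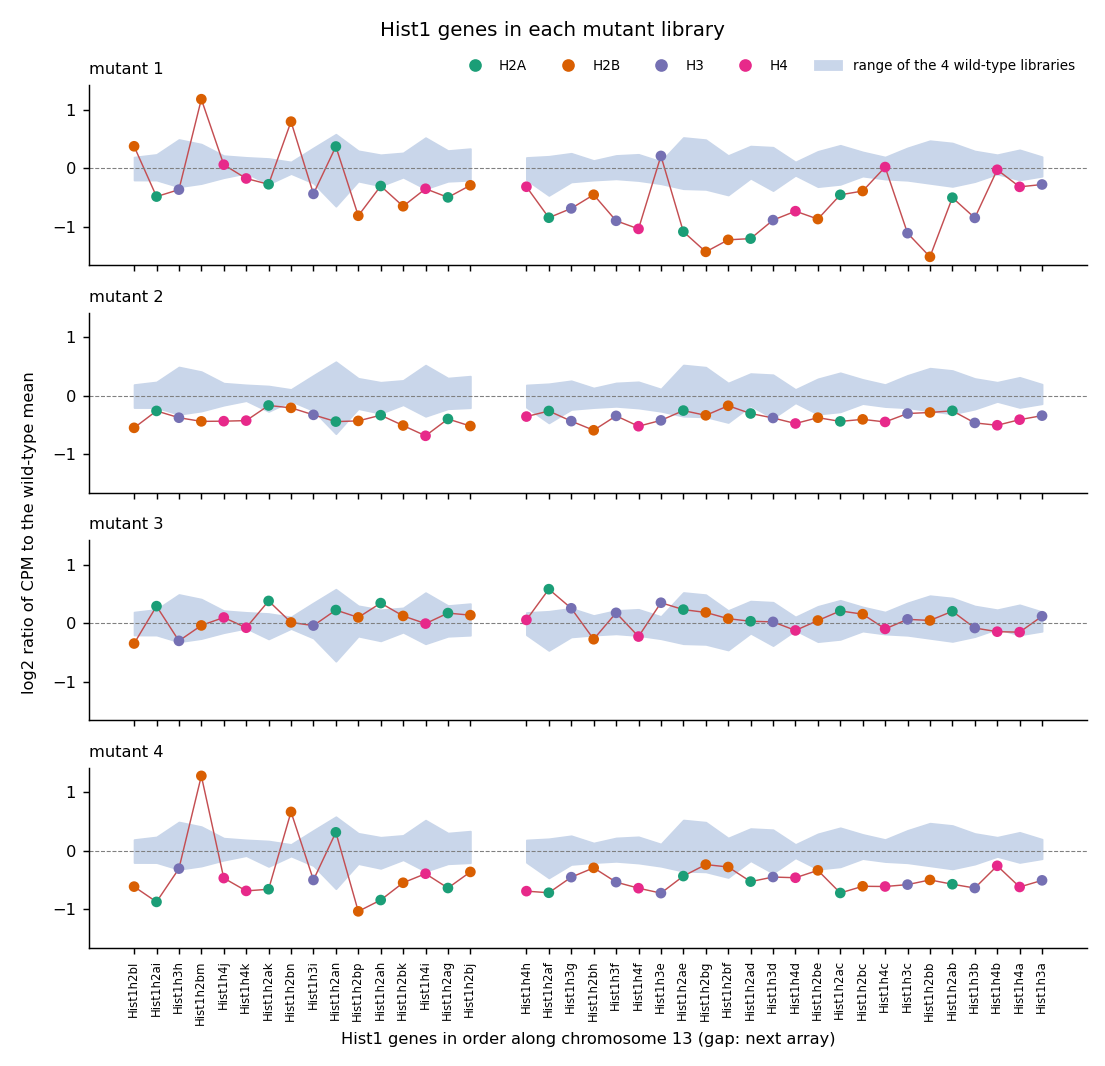
Log2 ratio of CPM to the wild-type mean for 40 Hist1 genes in their order on chromosome 13, 1 panel for each mutant library, points coloured by histone type; the blue band is the range of the 4 wild-type libraries and the gap parts the 2 arrays. Mutants 1 and 4 share peaks at Hist1h2bm and Hist1h2bn in the first array, mutant 1 also swings between -1.51 and 0.21 in the second, and mutants 2 and 3 vary less from gene to gene (SD 0.11 and 0.20).

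**Figure D3:**
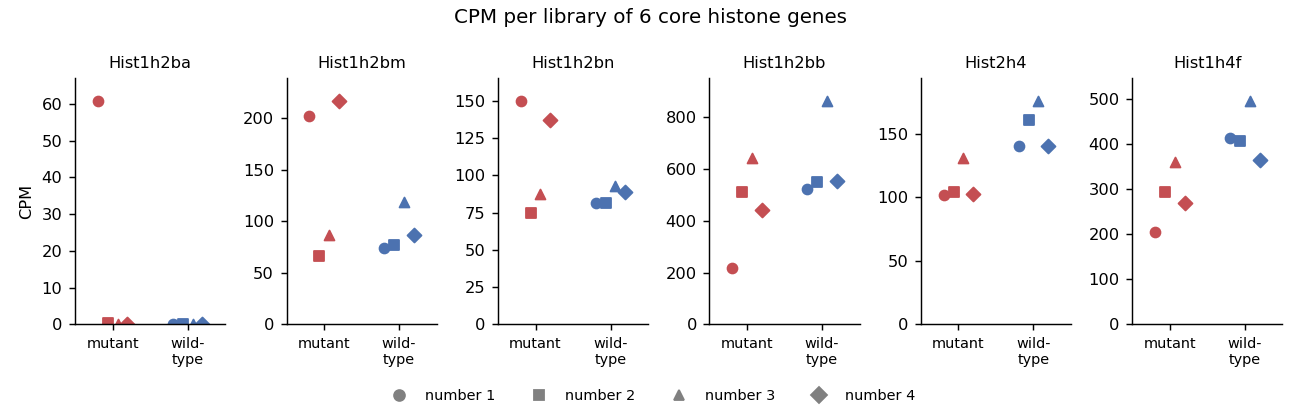
CPM of 6 core histone genes in each library (linear axes from 0; red, mutant; blue, wild-type; the marker gives the replicate number). Hist1h2ba is high in mutant 1 alone, Hist1h2bm and Hist1h2bn in mutants 1 and 4, and for Hist2h4 and Hist1h4f every mutant lies below every wild-type library.

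The promoters of the 4 types differ in the short motifs they hold, of which none is part of another. Promoters of 56 of the 62 genes were matched in RefSeq (GRCm38.p6, 250 bases before to 50 after the start). The octamer ATTTGCAT (either strand), known from H2B promoters as the site of the factor Oct1, was in 7 of 18 H2A and 6 of 16 H2B promoters, 0 of 10 H3 and 0 of 12 H4 promoters, and 1.74% of all 32851 promoters. CCAAT (either strand) was in 18 of 18 H2A, 16 of 16 H2B, 10 of 10 H3 and 3 of 12 H4 promoters, against 37.4% of all. TATAAA (sense strand) was in 10 of 18 H2A, 4 of 16 H2B, 4 of 10 H3 and 8 of 12 H4 promoters, against 8.32% of all.

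The promoters of the gene that stood highest in mutants 1 and 4 and of an H4 gene that was lower in every mutant are shown 5′ to 3′ on the plus strand, with matches to these motifs in capitals. Hist1h2bm (chr13:21721794-21722093) holds CCAAT or its reverse complement and the octamer, and Hist1h4d (chr13:23581318-23581617) holds the reverse complement of CCAAT next to TATAAA.
Hist1h2bm: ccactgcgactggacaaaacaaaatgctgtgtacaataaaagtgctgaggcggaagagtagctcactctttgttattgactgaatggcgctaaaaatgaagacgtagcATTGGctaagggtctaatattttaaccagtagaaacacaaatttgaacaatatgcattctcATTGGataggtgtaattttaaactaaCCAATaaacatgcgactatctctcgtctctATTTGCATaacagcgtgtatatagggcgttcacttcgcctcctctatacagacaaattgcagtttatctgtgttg
Hist1h4d: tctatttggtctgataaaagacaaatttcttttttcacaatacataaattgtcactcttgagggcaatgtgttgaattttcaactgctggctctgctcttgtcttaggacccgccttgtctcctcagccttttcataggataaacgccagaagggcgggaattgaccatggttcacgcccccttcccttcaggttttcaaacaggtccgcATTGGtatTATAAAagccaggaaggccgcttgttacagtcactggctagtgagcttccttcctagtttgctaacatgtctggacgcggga
A match is a description of the letters and does not show that a factor binds there.

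Across the whole family, core histone RNA was lower in mutants. Summed over the 62 genes it was 7663, 8484, 11413 and 8049 CPM in mutants 1 to 4, against 9888, 10553, 13396 and 10283 CPM in wild-type 1 to 4. The libraries numbered 3 were the highest of both groups, so the groups overlapped, but each mutant was below the wild-type library of its own number. The group means were 8902 ± 1707 CPM in mutants and 11029.9 ± 1601 CPM in wild-type embryos (SD, n = 4 each), a ratio of 0.807. The mutant library held 0.775, 0.804, 0.852 and 0.783 of the wild-type sum in the pairs numbered 1, 2, 3 and 4, and 44, 47, 42 and 45 of the 53 tested genes were lower in those pairs. In bulk tissue, fewer cells that express these genes and less RNA per cell cannot be told apart.

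No single core histone gene passed the threshold on the adjusted p, and 1 gene of 14861 did in the lower direction (0.00673%). Of the 53 tested genes 47 had a log2 fold change below 0 (88.7%, against 50% of all genes), with a median of -0.30 and a range of -0.57 to 0.68, beside a median of -0.00 over all genes, whose 5th and 95th percentiles were -0.35 and 0.41. At an unadjusted p under 0.05, 9 were lower and 0 higher, against 0.814% of all genes lower and 0.484% higher. In 4 genes every mutant lay below every wild-type library, against 0.559% of all genes, and in 0 genes above, against 0.484%. With the replicate number as a block in the edgeR fit, 34 were lower at an unadjusted p under 0.05 and 0 higher, against 2.52% and 2.49% of all genes, and again none passed after adjustment. In all, 31 were lower in 4 of 4 pairs, against 5.88% of all genes, and 0 were higher in all 4, against 6.27%. Genes of 1 family in the same libraries vary together, so these counts are not independent. The labels do not say what the replicate number marks, so the counts from the block and from the pairs rest on an assumed pairing. The size of the difference rested in part on mutants 1 and 4: without them the median was -0.09 and 40 of 53 genes were lower. In that fit 3 genes were lower at an unadjusted p under 0.05, against 0.943% of all genes, and 1 was higher (Hist3h2ba, log2 fold change 0.68, unadjusted p = 0.0489). Of all 15277 genes in that fit 284 passed this threshold, 144 of them lower and the rest higher. The difference also moved with the libraries numbered 3, with a median of -0.44 without mutant 3 and of -0.18 without wild-type 3. At an unadjusted p under 0.05, 28 genes were lower and 1 higher without mutant 3 (1.01% of all genes lower), and 5 lower and 0 higher without wild-type 3 (1.01% of all genes lower). There were 5 lower and 2 higher without mutant 2 (1.30% of all genes lower), and 4 lower and 0 higher without mutant 4 (0.434% of all genes lower). Without mutant 3, 264 of all 14982 genes passed that threshold, 151 of them lower and the rest higher. Without mutant 2 it was 269 of 15000, with 195 lower and the rest higher.

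**Figure D4:**
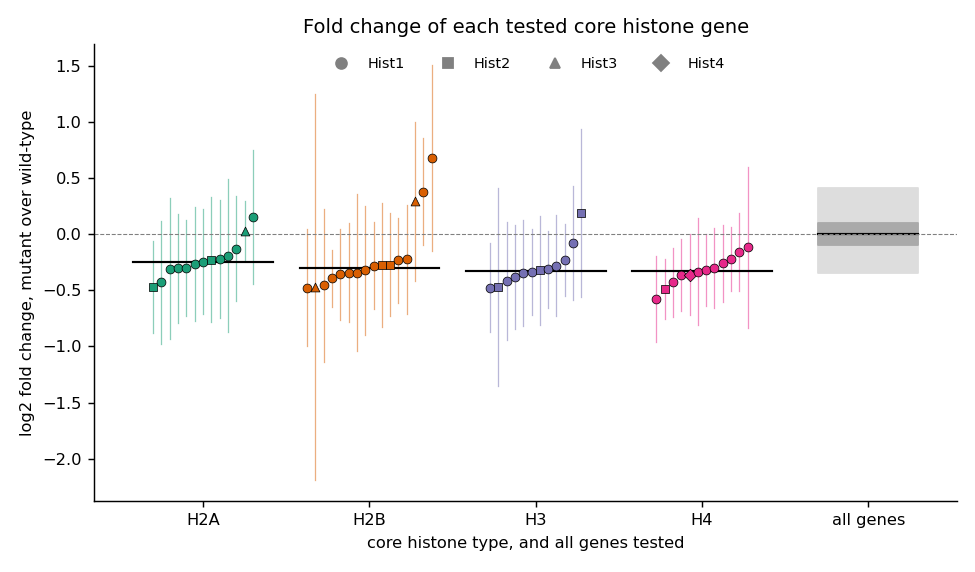
Log2 fold change (mutant over wild-type) of each tested core histone gene with its 95% interval, by type, markers giving the cluster and black lines the median of each type; at the right, the 5th to 95th and 25th to 75th percentiles and the median of all 14861 genes. All 12 H4 genes lie below 0, and the medians of the 4 types lie between -0.33 and -0.25.

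H4, the most conserved core histone, was lower in all mutants. Summed H4 RNA was 2689, 2537, 3242 and 2390.2 CPM in mutants 1 to 4, against 3411, 3451, 3835 and 3358 CPM in wild-type 1 to 4, and every mutant was below every wild-type library. The means were 2714 ± 372 CPM in mutants and 3514 ± 217 CPM in wild-type embryos (SD, n = 4 each), a ratio of 0.773. All 12 tested H4 genes were lower, their median log2 fold change was -0.33, and 6 had an unadjusted p under 0.05, against 0.814% of all genes lower. Without mutants 1 and 4 the H4 median was -0.27, with 11 of 12 genes lower.

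Hist2h4, the H4 gene of the Hist2 cluster (chr3:96261682-96263311, minus strand), had 102, 104, 131 and 102 CPM in mutants 1 to 4, against 140.3, 161, 176 and 140.5 CPM in wild-type 1 to 4. Every mutant lay below every wild-type library, and its log2 fold change of -0.49 (SE 0.12, edgeR quasi-likelihood unadjusted p = 0.00246, adjusted p = 1) had the smallest unadjusted p among the core histones. Hist1h4f (chr13:23551258-23551648, minus strand) had 205, 294, 359.6 and 270.3 CPM in mutants 1 to 4, against 414, 407, 496 and 364 CPM in wild-type 1 to 4, again without overlap. Mutant 3 came closest to the wild-type range. It had the lowest log2 fold change of the family, -0.57 (SE 0.17, edgeR quasi-likelihood unadjusted p = 0.00799, adjusted p = 1). Hist1h4d (chr13:23581598-23582735, plus strand) had 521, 623, 795 and 629 CPM in mutants 1 to 4, against 797, 859.6, 932 and 868 CPM in wild-type 1 to 4. Its highest mutant was just below its lowest wild-type library, and the difference came to -0.43 (SE 0.14, edgeR quasi-likelihood unadjusted p = 0.011, adjusted p = 1) on the log2 scale. Hist4h4, the only member of the Hist4 cluster (chromosome 6), had 434, 323, 407 and 332 CPM in mutants 1 to 4, against 508, 582, 365 and 467 CPM in wild-type 1 to 4, with overlap because wild-type 3 lay below mutants 1 and 3. It differed by -0.36 (SE 0.16) on the log2 scale (unadjusted p = 0.0498). Hist1h4h had 345, 336, 447 and 266 CPM in mutants 1 to 4, against 435, 375, 488 and 418 CPM in wild-type 1 to 4, and differed by -0.30 (SE 0.16). Hist1h4a and Hist1h4k, at -0.36 (SE 0.14) and -0.32 (SE 0.14), were the others with an unadjusted p under 0.05 (0.0303 for Hist1h4a, 0.0493 for Hist1h4k), and the remaining 5 H4 genes lay between -0.33 (Hist1h4i) and -0.11 (Hist1h4n). Without mutants 1 and 4 the log2 fold change was -0.38 for Hist2h4, -0.35 for Hist1h4f, -0.27 for Hist1h4d and -0.38 for Hist4h4.

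H3 genes were lower in 11 of 12 cases, at a median log2 fold change of -0.33, with 1 unadjusted p under 0.05 (0.814% of all genes lower). Summed H3 RNA was 1551, 1898, 2639 and 1690.1 CPM in mutants 1 to 4, against 2099, 2362, 2975 and 2374 CPM in wild-type 1 to 4, lower in 4 of 4 pairs, with overlap because mutant 3 exceeded 3 of the wild-type libraries. The means were 1945 ± 485 CPM in mutants and 2452 ± 371 CPM in wild-type embryos (SD, n = 4 each), a ratio of 0.793. Hist1h3b had 202, 264, 344 and 234 CPM in mutants 1 to 4, against 311, 349, 446 and 347 CPM in wild-type 1 to 4, with mutant 3 alone inside the wild-type range, and a log2 fold change of -0.48 (SE 0.18, edgeR quasi-likelihood unadjusted p = 0.0236, adjusted p = 1). Hist1h3f, the H3 gene with the most counts, had 375, 549.9, 789 and 481 CPM in mutants 1 to 4, against 616, 676, 812 and 683 CPM in wild-type 1 to 4, and differed by -0.34 (SE 0.21). Hist1h3c differed by -0.42 (SE 0.23), and had its lowest value, 119 CPM, in mutant 1. Of the 3 tested H3 genes of the Hist2 cluster, Hist2h3b had 57.0 ± 15.96 CPM in mutants and 71.3 ± 16.2 CPM in wild-type embryos (SD, n = 4 each; log2 fold change -0.32 (SE 0.22)). Hist2h3c1, which the entry Gm20634 overlaps, and Hist2h3c2, which shares 63.5% of its stretches with that entry, had 3.42 ± 1.31 CPM in mutants and 4.74 ± 2.30 CPM in wild-type embryos, and 3.69 ± 1.496 CPM in mutants and 3.24 ± 0.864 CPM in wild-type embryos, with log2 fold changes of -0.47 (SE 0.39) and 0.19 (SE 0.33). The H3 median was -0.08 without mutants 1 and 4.

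H2B genes were lower in 13 of 16 cases, with a median of -0.30 and 1 unadjusted p under 0.05 (0.814% of all genes lower). They held the widest range of fold changes of the 4 types among protein-coding genes. Summed H2B RNA was 2564, 3085, 4158 and 3196 CPM in mutants 1 to 4, against 3402, 3590.3, 5219 and 3416 CPM in wild-type 1 to 4, lower in 4 of 4 pairs, with wild-type 3 far above the rest. The means were 3251 ± 665 CPM in mutants and 3907 ± 879 CPM in wild-type embryos (SD, n = 4 each), a ratio of 0.832. Hist1h2bh (chr13:23541714-23543392, minus strand) had 129.8, 118, 147 and 145 CPM in mutants 1 to 4, against 154, 194, 195 and 166 CPM in wild-type 1 to 4. It was the only H2B gene in which every mutant lay below every wild-type library, with a log2 fold change of -0.39 (SE 0.11, edgeR quasi-likelihood unadjusted p = 0.00677, adjusted p = 1), and was at -0.41 without mutants 1 and 4. Hist2h2bb, the most abundant core histone RNA, had 738, 1010.1, 1377 and 1013 CPM in mutants 1 to 4, against 1133, 1089, 1847 and 940.2 CPM in wild-type 1 to 4, with mutant 1 below and wild-type 3 above all libraries of the other group, overlap among the rest, and a log2 fold change of -0.28 (SE 0.24). Hist1h2be, which overlaps Hist1h1e on the same strand, differed by -0.34 (SE 0.20), Hist1h2bb by -0.45 (SE 0.30) and the scarce Hist2h2be by -0.27 (SE 0.21). In the Hist3 cluster, Hist3h2ba had 27.9, 51.2, 82.4 and 44.96 CPM in mutants 1 to 4, against 41.5, 33.2, 60.1 and 33.7 CPM in wild-type 1 to 4, and a log2 fold change of 0.29 (SE 0.31). The processed pseudogene Hist3h2bb-ps had 2.92, 21.8, 8.10 and 5.24 CPM in mutants 1 to 4, against 22.4, 3.89, 23.1 and 3.45 CPM in wild-type 1 to 4, high in mutant 2 and in wild-type 1 and 3, and its interval ran from -2.19 to 1.25. The H2B median was -0.11 without mutants 1 and 4, with 14 of 16 genes lower.

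The difference of H2A genes moved most with single libraries: their median ran from -0.50 without mutant 3 to -0.11 without mutant 4. In the fit on all 8 libraries they were lower in 11 of 13 cases, with a median of -0.25 and 1 unadjusted p under 0.05 (0.814% of all genes lower). With mutants 1 and 4 left out the median was 0.03, with 5 of 13 genes lower. Summed H2A RNA was 859.7, 964, 1374 and 773 CPM in mutants 1 to 4, against 976, 1149, 1368 and 1135 CPM in wild-type 1 to 4, lower in 3 of 4 pairs, with mutant 3 as high as the highest wild-type library. The means were 993 ± 266 CPM in mutants and 1157 ± 161 CPM in wild-type embryos (SD, n = 4 each), a ratio of 0.858. Hist2h2ac (chr3:96220361-96220880, minus strand) had 120.2, 119, 159 and 88.5 CPM in mutants 1 to 4, against 134, 167, 201 and 173 CPM in wild-type 1 to 4, with mutant 3 inside the wild-type range, and a log2 fold change of -0.47 (SE 0.18, edgeR quasi-likelihood unadjusted p = 0.0292, adjusted p = 1). Hist1h2ak, the H2A gene with the most counts, had 177, 191, 279 and 136 CPM in mutants 1 to 4, against 178, 239, 197 and 239.9 CPM in wild-type 1 to 4, with the highest and the lowest value both in mutants, and a log2 fold change of -0.13 (SE 0.21). Hist3h2a, which overlaps Trim17 on the same strand, had 151 ± 21.8 CPM in mutants and 149 ± 13.1 CPM in wild-type embryos (SD, n = 4 each) and differed by 0.03 (SE 0.12) on the log2 scale. Hist2h2ab differed by -0.23 (SE 0.25).

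**Figure D5:**
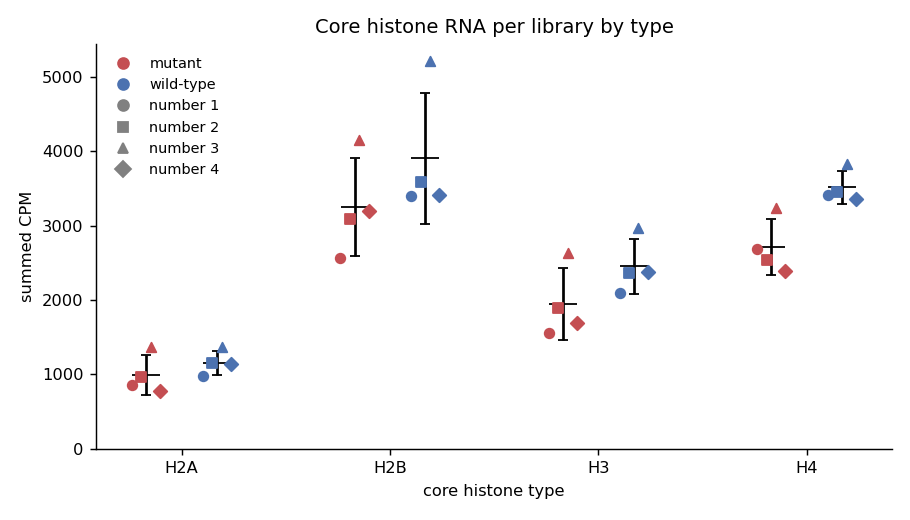
Summed CPM of all genes of each core histone type in each library (axis from 0; red, mutant; blue, wild-type; markers give the replicate number, lines the mean ± SD, n = 4 each). In H4 every mutant lies below every wild-type library, and in each type the libraries numbered 3 are the highest of their group.

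The Hist1 and Hist2 clusters had nearly the same ratio of mutant to wild-type summed CPM, but most of the Hist2 sum came from 1 gene. Summed Hist1 RNA was 6037, 6622, 8948 and 6252 CPM in mutants 1 to 4, against 7669, 8269.9, 10424 and 8300.4 CPM in wild-type 1 to 4, a ratio of 0.804 between the means. Summed Hist2 RNA was 1030.0, 1319, 1785 and 1272 CPM in mutants 1 to 4, against 1496, 1519, 2359 and 1345 CPM in wild-type 1 to 4, a ratio of 0.805. Hist2h2bb alone gave 1035 of the mean Hist2 sum of 1351 CPM in mutants and 1252 of 1680 CPM in wild-type embryos. The Hist2 ratio therefore rests mostly on this gene, which has no unique stretch. The Hist1 and Hist2 sums were both lower in 4 of 4 pairs and overlapped between the groups. The median log2 fold change was -0.30 over 41 tested Hist1 genes (38 lower) and -0.30 over 8 tested Hist2 genes (7 lower), and without mutants 1 and 4 it was -0.11 in each. Within Hist1, the first array had a ratio of 0.884 and 14 of 17 genes lower, and the second 0.781 and 24 of 24 lower. The median log2 fold change was -0.23 in the first array and -0.33 in the second. With mutants 1 and 4 left out the medians were -0.13 in the first array and -0.09 in the second, so their order turned. The Hist3 cluster, with 3 genes on chromosome 11, had 162, 221, 273 and 194 CPM in mutants 1 to 4, against 215, 182, 248 and 171 CPM in wild-type 1 to 4, lower in 1 of 4 pairs (ratio 1.04). Differences between clusters were not tested, since the sums rest on the same 8 libraries.

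The median was below 0 in every class of gene model. The 35 tested genes with a stem-loop match had a median log2 fold change of -0.34 (31 lower) and the 18 without one -0.25 (16 lower). Genes whose model ran more than 200 bases past the stem-loop had a median of -0.34 (14 genes) and those that ended nearer -0.32 (21 genes). Genes with over 50% unique stretches had a median of -0.34 (26 genes), and the others -0.27 (27 genes). Of the better separated genes 6 had an unadjusted p under 0.05 in the lower direction, and of the others 3, against 0.814% of all genes.

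In the divergent pairs, counts per kb of the H2B gene usually stood above those of its H2A partner. There were 13 pairs of an H2A and an H2B gene with starts under 1000 bases apart on opposite strands, 172 to 305 bases, and 10 had both genes tested. Per kb, H2B was above H2A in 8 of 8 libraries in 7 of the Hist1 pairs, from Hist1h2ai and Hist1h2bl (means over the 8 libraries of 197 and 311 CPM per kb) to Hist1h2ae and Hist1h2bg (59.7 and 430.4 CPM per kb). The exceptions were Hist1h2ak and Hist1h2bn, with H2B above in 1 of 8 libraries, which was mutant 4, and the pairs Hist2h2ac with Hist2h2be and Hist3h2a with the pseudogene Hist3h2bb-ps, with H2B above in 0 of 8. Hist1h2bn and Hist1h2ak parted in mutant 4: the H2B gene had 137 CPM there, against 81.2 to 93.1 CPM in wild-type embryos, while the H2A gene had 136 CPM, against 178 to 239.9 CPM in wild-type embryos. Unique stretches made up 14.2% of Hist1h2an and 54.7% of Hist1h2bp, but 85.9% of Hist1h2ac and 69.4% of Hist1h2bc. They made up 43.0% of Hist1h2ak and 13.6% of Hist1h2bn. In the Hist1 pairs each H2A gene, but no H2B gene, overlaps an annotated entry on the opposite strand. The strand setting and the handling of shared reads are not stated, and their part in these levels was not tested.

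Other chromatin and cell cycle genes were set beside the core histones, from lists written with earlier results of these data known; none of their genes passed the adjusted threshold. The linker histone H1 genes, of which the Hist1h1 genes lie in the same arrays, were lower in 8 of 8 cases (median log2 fold change -0.30), 3 of them at an unadjusted p under 0.05 (0.814% of all genes lower). Hist1h1d had 537, 501, 639 and 532 CPM in mutants 1 to 4, against 725, 831, 904 and 615 CPM in wild-type 1 to 4 (log2 fold change -0.48 (SE 0.14)), with mutant 3 inside the wild-type range. Hist1h1e differed by -0.40 (SE 0.15). Summed H1 RNA was 3258, 3374, 4184 and 3181 CPM in mutants 1 to 4, against 4118, 4533, 5639 and 3967 CPM in wild-type 1 to 4, lower in each pair. The H1 median was -0.28 without mutants 1 and 4, and in the blocked fit 5 of 8 genes were lower at an unadjusted p under 0.05, against 2.52% of all genes.

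Core histone variants that are made outside S phase from polyadenylated mRNA had a median nearer 0, with 8 of 9 lower and a median of -0.09. H3f3a, which encodes H3.3, was at -0.19 (SE 0.14) and H2afv, which encodes an H2A.Z form, at -0.12 (SE 0.10). Genes of DNA replication had a median of -0.04 (35 of 50 lower), with Tyms, which makes thymidylate, at -0.17 (SE 0.11) and Rpa3, a subunit of the single-strand DNA binding complex, at -0.29 (SE 0.20). Their summed level was 5876, 5846, 7519 and 7555 CPM in mutants 1 to 4, against 6086, 6279, 7436 and 7648 CPM in wild-type 1 to 4, highest in the libraries numbered 3 and 4 of both groups. Genes of mitosis had a median of -0.03 (20 of 29 lower), with Plk1 at 0.12 (SE 0.12) and Ccnb2 at -0.09 (SE 0.11). Genes of histone mRNA transcription and 3′ processing had a median of -0.00 (15 of 28 lower), with Lsm10, a U7 particle subunit, at -0.21 (SE 0.13), Eri1, a nuclease that trims histone mRNA ends, at -0.10 (SE 0.08), and Slbp at -0.12 (SE 0.18). Histone chaperones had a median of 0.01 (10 of 24 lower), with Cabin1 at 0.22 (SE 0.21) and Tonsl at 0.16 (SE 0.16). None of the replication, mitosis, processing or chaperone genes had an unadjusted p under 0.05 in the edgeR fit without the block. With the replicate block 3 of 50 replication genes were lower at that threshold, against 2.52% of all genes, among them Rpa3 (unadjusted p = 0.0132) and Tyms (unadjusted p = 0.0334), and 8 of 50 were lower in 4 of 4 pairs, against 5.88% of all genes. The mitosis, processing and chaperone lists had 0 genes at that threshold in the blocked fit, and 1 of the 9 variants was lower there, which was H3f3a (unadjusted p = 0.0466).

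Other RNA classes and cell type markers also differed in level between the groups, and their part in the lower histone RNA was not tested. RNAs without a poly(A) tail (small nucleolar and Cajal body RNAs, 7SK and others) were lower in 80 of 102 cases, their median log2 fold change being -0.16. Of them 6 were lower at an unadjusted p under 0.05, against 0.814% of all genes, among them Snora74a at -0.43 (SE 0.17) and the scarce Snord35b at -0.96 (SE 0.35). Their summed level was 13666, 18865, 16759 and 11665 CPM in mutants 1 to 4, against 17889.6, 18259, 23352 and 18543 CPM in wild-type 1 to 4, highest in mutant 2 and wild-type 3. With the replicate block 12 of 102 were lower at an unadjusted p under 0.05, against 2.52% of all genes. The labelled tissue was seen in all libraries, with Myh7, the slow myosin of the embryonic ventricle, between 762 and 3767 CPM and Prrx1, a mesenchyme factor, between 143 and 247 CPM. Heart muscle genes were higher in 18 of 18 cases (median 0.33, summed 27979, 24334, 14255 and 12752 CPM in mutants 1 to 4, against 17239, 20659, 9928 and 9073 CPM in wild-type 1 to 4) and arch mesenchyme genes lower in 18 of 19 (median -0.45, Msx1 at -0.99 (SE 0.31), 5 at an unadjusted p under 0.05, against 0.814% of all genes lower). Summed arch mesenchyme RNA was 501, 347, 419 and 367 CPM in mutants 1 to 4, against 376, 682, 549 and 635 CPM in wild-type 1 to 4, overlapping because wild-type 1 lay below mutants 1 and 3.

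Markers of other cells of the dissection also differed, again with no test of their part. Erythroid genes were lower in 10 of 10 cases (median -0.76), with a summed level of 7669, 9506, 5068 and 2888 CPM in mutants 1 to 4, against 23969, 4876, 6850.3 and 7656 CPM in wild-type 1 to 4, highest in wild-type 1. Macrophage genes were higher in 11 of 11 (median 0.47, 2 at an unadjusted p under 0.05, against 0.484% of all genes higher), from 40.7 to 65.0 CPM summed in mutants and from 29.2 to 38.4 CPM in wild-type embryos. Neural genes were higher in 11 of 13 (median 0.68), from 38.0 to 725 CPM summed in mutants and from 71.98 to 644 CPM in wild-type embryos, lowest in mutant 1 and wild-type 1 of each group. The core histone sum was highest in mutant 3 and wild-type 3, as were the neural and mitosis sums. The heart muscle sum was highest in mutant 1 and wild-type 2 and the erythroid sum in mutant 2 and wild-type 1. The part of these differences between libraries was not tested. In the fit with the replicate block, 7 of 18 heart muscle and 3 of 11 macrophage genes were higher at an unadjusted p under 0.05, against 2.49% of all genes. At that threshold 9 of 19 arch mesenchyme and 2 of 10 erythroid genes were lower, against 2.52% of all genes.

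The authors' deposited table compares the same groups over 13631 genes; in it 52 core histone genes were listed and 46 had a log2 fold change below 0. Of these, 8 had a p-value under 0.05 in the authors' deposited table, against 0.616% of all its genes in that direction, and none had a false discovery rate under 0.05. Among the first 100 genes by p-value in the authors' deposited table, core histones held 7 places, and Hist2h4, with a log2 fold change of -0.49 and a p-value of 0.000639, stood at place 3.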

How the data were processed

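Raw counts per gene for 8 libraries, 1 embryo each, were deposited by the authors, and all levels and tests here start from these counts. Per the labels' protocols, 300 ng of total RNA was extracted with TRIzol, depleted of ribosomal RNA and made into stranded libraries; the submitters' processing notes name mm10 and the tools edgeR 3.14, HTSeq 0.6.1 and TopHat2 2.0.11. Not given in the sources used here were the annotation, the strand setting and the handling of multiply mapped reads. A second table of the authors, deposited with log2 fold changes, linear fold values and p-values, was used only where named; the deposited normalized counts were not used. No per-sample column was left unmapped (0 columns).

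Counts were scaled by TMM, filtered with filterByExpr (14861 of 23420 genes kept) and fitted with edgeR 4.0.16 (R 4.3.3; quasi-likelihood, Benjamini-Hochberg adjustment over all tested genes, threshold 0.05, two-sided), mutant against wild-type, on 4 libraries each. Library totals of 20823890 to 28175968 counts limit the precision of scarce genes, and intervals of 95% come from the same fit. Levels per kb used the exon length of GENCODE M21 (GRCm38, the same build as mm10), and 50-base stretches, stem-loops and overlaps were read from its transcripts. Promoters came from RefSeq (GRCm38.p6). The method was tested on simulated data.

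Genes named were Pygo2, the 3 members of each type with the highest mean CPM, the 5 members with the smallest p in each direction, all tested Hist2, Hist3 and Hist4 members, and the 2 genes with the smallest p in each other list. Hist1h2ab, Hist1h2ba, Hist1h4a, Hist1h4k, Hist1h2bl, Hist1h2bg, Hist1h4n, Hist1h4i and Slbp lie outside that rule, as do the neighbours of the arrays and the divergent pairs. They were chosen after their values were seen. Other members named outside the rule were Hist1h4c and Hist1h3g, for their stem-loops, and genes named for their scarce counts. The members and lists were chosen with earlier results of these data known. Alternatives were RLE factors, TMM without core histones, the bare library total, other filters, DESeq2 1.42.0, limma-voom (limma 3.58.1), a replicate block and leaving out each library. Embryos with the same replicate number were taken as paired: their deviations from the group means over all tested genes correlated at 0.56, 0.18, 0.68 and 0.19 for numbers 1, 2, 3 and 4, while the labels do not say what the number marks and other combinations ran from -0.61 to 0.63. Mutant 2 correlated more with wild-type 1 (0.48), and mutant 4 more with wild-type 3 (0.63), than with the wild-type library of its own number. Over the core histones alone the same-numbered correlations were -0.19, -0.47, 0.13 and 0.13 for numbers 1, 2, 3 and 4. A correlation over genes does not register a shift that all of them share in a library. The summed core histone level rose in the order of numbers 1, 4, 2 and 3 in both groups. What the number marks was not tested.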

Additional observations from a re-analysis of the deposited data

Results flagged for a closer look

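In 116 groups of 4 libraries (named genes and summed levels, mutant and wild-type apart), 7 had a library far from the other 3 by Dixon's criterion, and chance gives about 1 in 20. Hist1h2ba had 60.9 CPM in mutant 1, against 0.0377 to 0.352 CPM in the other mutants. Hist2h4 had 131 CPM in mutant 3, against 102 to 104 CPM in the other mutants, and remained below every wild-type library there. Hist1h2bb had 862 CPM in wild-type 3, against 520.3 to 554 CPM in the other wild-type libraries, and summed H2B RNA had 5219 CPM there, against 3402 to 3590.3 CPM.

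Outside the core histones, Rpa3 had 52.7 CPM in wild-type 3, against 32.6 to 34.9 CPM in the other wild-type libraries. Nfe2, an erythroid factor, had 18.7 CPM in wild-type 1, against 3.62 to 6.08 CPM in the others, and the mesenchyme factor Prrx1 had 144 CPM in wild-type 1, against 238 to 247 CPM. What sets these libraries apart was not tested.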

How the results depend on the processing

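Under every alternative run, 0 core histone genes passed the adjusted threshold. The count of all genes passing it was 1 with the other scalings, filters and tools and between 0 and 1 when libraries were left out, with 0 without wild-type 1, wild-type 2, mutant 2, mutant 3 or mutant 4. It was 0 without mutants 1 and 4 together, an alternative chosen after seeing the data, where Pygo2 had an adjusted p of 0.189 in the edgeR fit. The median log2 fold change of the core histones stayed between -0.32 and -0.27 with the other scalings, filters and tools, and between -0.44 (without mutant 3) and -0.18 (without wild-type 3) when single libraries were left out. The ratio of summed levels then ran from 0.73 to 0.87 for all, 0.75 to 0.92 for H2A, 0.75 to 0.94 for H2B, 0.70 to 0.85 for H3 and 0.72 to 0.80 for H4.

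Members with an unadjusted p under 0.05 in the lower direction numbered 9 in edgeR, 9 in DESeq2 and 9 in limma-voom. The shares of all genes were 0.814%, 0.962% and 0.855% in edgeR, DESeq2 and limma-voom. There were 8 such members with RLE factors (0.834% of all genes) and 7 with the bare library total (0.498% of all genes). With the replicate block for the pairing there were 34, against 2.52% of all genes, and the median was -0.32. The block changed no adjusted call. Some named members changed direction, not all of them near 0 in the fit on all 8 libraries. In that fit Hist1h2bm was at 0.68, Hist1h2bn at 0.38 and Hist3h2bb-ps at -0.47. When single libraries were left out, the log2 fold change of Hist1h2ak ran from -0.35 (without mutant 3) to 0.012 (without mutant 4), of Hist1h2an from -0.0085 (without wild-type 1) to 0.42 (without wild-type 3), of Hist2h3c2 from -0.028 (without mutant 3) to 0.41 (without mutant 1), of Hist3h2ba from -0.026 (without mutant 3) to 0.51 (without wild-type 3), and of Hist3h2a from -0.076 (without mutant 3) to 0.094 (without mutant 1), with -0.022 without wild-type 4. Leaving out mutants 1 and 4 together gave 0.15 for Hist1h2ak, -0.055 for Hist1h2an, -0.21 for Hist1h2bm, -0.077 for Hist1h2bn, 0.085 for Hist2h2ab and 0.19 for Hist3h2bb-ps. The cause was not tested. Counting error limits the low-count genes Hist1h4n, Hist2h3c1, Hist2h3c2 and Hist2h2be most. Unique stretches made up 14.4% of Hist1h4n, 0% of Hist2h3c1 and 36.5% of Hist2h3c2, against 100% of Hist2h2be. How scarce the RNA of the less unique ones is cannot be read from counts.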
